A study of Saccharomyces cerevisiae with 26 samples.

Results

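The genes described here are 46 cytosolic translation factors and aminoacyl-tRNA synthetases of Saccharomyces cerevisiae, chosen by name. They are 46 of the 5656 genes that the arrays name singly, and where a gene has more than 1 probe set, the one of highest mean log2 signal stands for it. By role, 22 act in initiation, 4 in elongation, 2 in release and 18 in tRNA charging. All 46 were among the 5369 genes tested, and 45 lay above a signal floor of 12 on all 26 arrays. The exception was KRS1, which was above the floor on 23 arrays.

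As background, a protein is made in 4 steps that these genes serve. Initiation begins when the cap-binding complex recruits an mRNA and the factor eIF3 holds the small ribosomal subunit ready. The factor eIF2 delivers the initiator tRNA as a complex with GTP, and eIF2B recharges eIF2 with GTP after each round. Elongation factors then bring charged tRNAs and move the ribosome along, and release factors free the finished chain at a stop codon. Aminoacyl-tRNA synthetases join each amino acid to its tRNA. In yeast, genes for this machinery are known to respond to nutrient supply and growth rate, and the transcription factor Sfp1 is known to activate genes needed to make ribosomes.

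RNA was measured on Affymetrix arrays in chemostat cultures, which hold the growth rate at the dilution rate, here 0.10 per h, at 30 °C and pH 5.0. The strain without SFP1 (sfp1Δ::KlLEU2, with leu2-3,112, MATa MAL2-8c SUC2) was set against the reference strain CEN.PK113-7D (MATa MAL2-8c SUC2). Each strain was sampled in aerobic, glucose-limited steady state in 3 replicate cultures. There were 2 replicates at each of 5, 10, 30, 60 and 120 min, and whether the times share cultures is not given. These minutes count from when air was replaced by nitrogen, feeding was stopped and 200 mM glucose was added. The pulse therefore joins glucose excess, loss of oxygen and the end of the fixed growth rate, and the strains differ at LEU2 as well as SFP1; neither can be told apart here.

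SFP1 signal was at most 2.9 on every deletion array and at least 97.2 on every reference array. Replicates of 10 groups correlated at 0.970 to 0.993 across genes. The deletion arrays labelled 10 min correlated at 0.805 and those labelled 30 min at 0.796, while 10 min replicate 1 and 30 min replicate 2 correlated at 0.978 and 10 min replicate 2 and 30 min replicate 1 at 0.922. The fit behind the results below used the other 22 arrays, and these 4 are described at the end. The actin 5' to 3' signal ratio, a measure of RNA integrity, was 0.147 on replicate 1 of the deletion strain at steady state, 0.00322 on its replicate 1 at 30 min and 0.247 on its replicate 1 at 60 min. It was 0.598 to 0.968 on the other deletion arrays, against 0.697 to 0.923 on the reference arrays. Of 5 genes typical of MATa cells, 5 were above the floor on every deletion array and 4 on every reference array, and their summed signal was 5045.2 to 15982.0 on deletion arrays and 3023.9 to 10433.4 on reference arrays. Of 4 genes typical of the other mating type, alpha, 3 were above the floor on every deletion array and 2 on every reference array, with a summed signal of 254.8 to 886.8 on deletion arrays, against 76.0 to 174.3 on reference arrays. MF(ALPHA)2, an alpha pheromone gene, was at or under the floor on every array, while MF(ALPHA)1, the other one, had 603.7 to 721.4 at steady state in the deletion strain, against 56.4 to 71.9 in the reference strain. The summed signal of these alpha markers, and MF(ALPHA)1 at steady state, were thus higher in the deletion strain, labelled MATa. Their part in the results below was not tested. Median signal per array was 33.2 to 49.0 in the deletion strain and 22.7 to 45.9 in the reference strain. Every array had been scaled to the same mean, so a signal is a share of the RNA hybridised. Less of a transcript in every cell and fewer cells carrying it cannot be told apart in these bulk cultures.

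**Figure D1:**
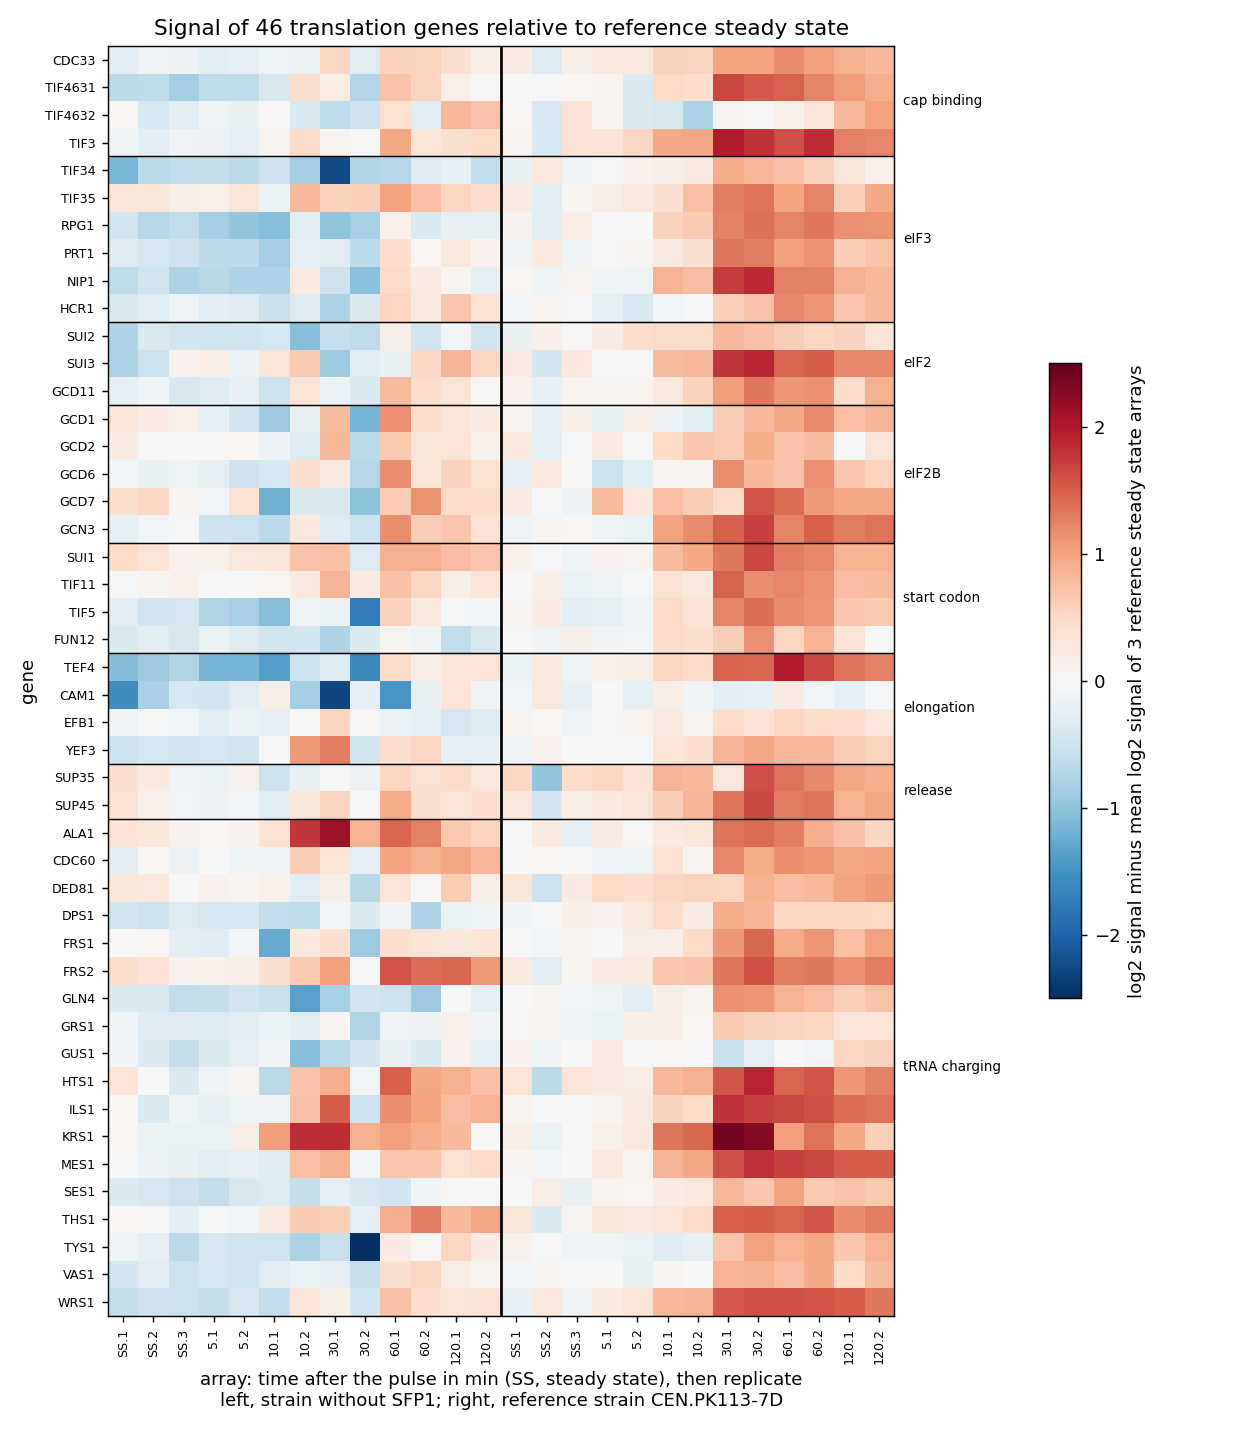
Log2 signal of the 46 genes (rows, by role) on each of 26 arrays (columns), minus the mean of the 3 reference steady state arrays, with the strain without SFP1 on the left and the reference strain on the right. The reference arrays from 30 min onward are red in nearly every row, as 43 genes were called higher at 30 min, while the deletion arrays at steady state and 5 min are mostly pale or blue.

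In the reference strain, the translation genes did not pass the test at 5 min, began to rise at 10 min and were nearly all higher at 30 min. With limma at a Benjamini-Hochberg adjusted p under 0.05, no gene of the 46 was called at 5 min, where 9.65% of all genes tested were called, and 5 had an unadjusted p under 0.05. At 10 min 28 were called higher and 1 lower, where 15.2% of all genes were called higher and 31.6% lower. At 30 min 43 were called higher and 1 lower, against 22.6% and 53.0% of all genes. The median change of the 46 genes at 30 min was 1.15 on the log2 scale, against -0.53 for all genes tested.

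At 10 min the calls were spread over the roles: 17 of 22 initiation genes rose, 2 of 4 elongation genes, 1 of 2 release genes and 8 of 18 synthetases. GCN3, the regulatory alpha subunit of eIF2B, had signals of 154.6 and 175.0 at 10 min, against 71.0, 81.2 and 79.4 at steady state. This was a rise of 1.09 (log2, SE 0.158, limma adjusted p = 2.74e-05), with no overlap between the times. MES1, the methionyl-tRNA synthetase, rose by 0.91 (adjusted p = 7.12e-07), and TIF3, the eIF4B homologue that aids mRNA binding, by 0.96 (adjusted p = 0.000637). Of the 29 calls, 13 held with any single array left out; 14 were made without 10 min replicate 2, and 12 with all 26 arrays in the fit. TIF4632, the only call downward, had signals of 21.2 and 16.4 at 10 min, against 29.0, 21.0 and 36.0 at steady state, so its arrays overlapped, and the call was lost in 14 of the fits that left out 1 array.

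The cap-binding and scaffold genes diverged at 30 min. TIF4631, which encodes the main form of the scaffold eIF4G, had signals of 466.7 and 424.0 at 30 min, against 144.9, 142.0 and 150.9 at steady state. Its paralogue TIF4632 had 29.2 and 28.6 at 30 min, against 29.0, 21.0 and 36.0. TIF4631 rose by 1.61 (log2, SE 0.130, limma adjusted p = 4.81e-09), whereas TIF4632 was not called and its arrays overlapped. TIF3 had 848.7 and 758.1 at 30 min, against 230.6, 159.2 and 278.6, a rise of 1.89 (SE 0.195, adjusted p = 1.11e-07). CDC33, the cap-binding protein eIF4E, reached 781.2 and 781.3, against 455.0, 313.4 and 436.0.

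All 6 genes of eIF3 and its partner rose at 30 min, with a median of 1.31. NIP1, a core subunit, had signals of 246.3 and 264.4 at 30 min, against 75.5, 66.6 and 77.3 at steady state, and rose by 1.81 (log2, SE 0.134, limma adjusted p = 1.39e-09). Of the other core subunits, PRT1 and RPG1 both changed by 1.31, TIF35 by 1.33 and TIF34 by 0.88. HCR1, the loosely bound partner, changed least of the 6, by 0.66. Its 30 min signals were 664.0 and 724.3, against 421.4, 465.1 and 433.0, and its highest mean came at 60 min.

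All 3 subunits of eIF2 rose. SUI3, the beta subunit, had 517.1 and 554.4 at 30 min, against 172.7, 108.4 and 179.5 at steady state, and rose by 1.84 (log2, SE 0.250, limma adjusted p = 3.3e-06). GCD11, the GTP-binding gamma subunit, changed by 1.18 and SUI2, the alpha subunit that the kinase Gcn2 phosphorylates, by 0.78. All 5 subunits of eIF2B rose as well, between 0.71 for GCD1 and 1.60 for GCN3. GCD7, the beta subunit, rested on unlike arrays: its 30 min signals were 179.8 and 389.4, against 150.4, 126.3 and 118.5, and its call was lost without 30 min replicate 2 (adjusted p = 0.12). The start codon and subunit-joining genes SUI1 (eIF1), TIF11 (eIF1A), TIF5 (eIF5, which triggers GTP hydrolysis by eIF2) and FUN12 (eIF5B) changed by 1.49, 1.32, 1.32 and 0.88, all called.

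Among elongation genes, the paralogues TEF4 and CAM1, both encoding the gamma subunit of the exchange factor eEF1B, moved apart. TEF4 had 1146.8 and 1126.3 at 30 min, against 366.4, 493.8 and 380.7 at steady state, and rose by 1.47. The second TEF4 probe set gave 1.46 but was not called (limma adjusted p = 0.0948). CAM1 had 333.1 and 334.9 at 30 min, against 381.7, 481.7 and 343.7, and was not called. EFB1, the catalytic subunit of eEF1B, changed by 0.43 and YEF3, the fungal factor eEF3, by 0.91. The EFB1 call depends on the scaling: with quantile normalization it was called lower, at -0.25 (limma adjusted p = 0.0478). Its second probe set was not called at 0.35 (limma adjusted p = 0.251). The release factors SUP45 (eRF1, which reads the stop codon) and SUP35 (eRF3, its GTPase) changed by 1.49 and 0.95. SUP35 had 207.4 and 521.3 at 30 min, against 243.9, 87.3 and 231.3, so its arrays overlapped, and without 30 min replicate 2 or steady state replicate 2 it was not called (limma adjusted p up to 0.537).

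Of the 18 synthetases, 17 rose at 30 min. KRS1, the lysyl-tRNA synthetase, had 70.7 and 65.0 at 30 min, against 15.2, 12.1 and 13.4 at steady state, just above the floor, and its fitted rise was 2.33 (log2, SE 0.195, limma adjusted p = 7.48e-09). ILS1 (isoleucine) had 936.4 and 879.3, against 285.0, 258.2 and 259.3, and rose by 1.76 (adjusted p = 2.43e-10). HTS1 (histidine) had 799.5 and 1005.3, against 341.6, 170.7 and 337.8, and rose by 1.73 (adjusted p = 6.83e-06). The exception was GUS1, the glutamyl-tRNA synthetase, which had 428.4 and 533.6 at 30 min, against 673.5, 580.4 and 637.7. It was called lower at -0.40 (adjusted p = 0.0198), but without steady state replicate 1 or 30 min replicate 1 the call was lost, and with arrays scaled to a common median its value was 0.55, so its direction is not settled. FRS1 and FRS2, the subunits of one phenylalanyl-tRNA synthetase, changed by 1.26 and 1.47.

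The remaining synthetases changed by 0.62 to 1.71 at 30 min. MES1, which charges the initiator tRNA as well as the elongator tRNA for methionine, had 1385.8 and 1583.8, against 471.8, 431.0 and 453.3 at steady state. WRS1 (tryptophan) had 1070.2 and 1129.8, against 321.2, 448.0 and 346.4, and THS1 (threonine) had 840.1 and 851.6, against 363.7, 231.9 and 309.2. The groups of all 3 genes were well apart. The smallest called rises were those of GRS1 (glycine), with 885.5 and 834.9, against 571.0, 585.2 and 524.4, and DED81 (asparagine), with 731.6 and 932.1, against 615.6, 347.8 and 588.6. Without 30 min replicate 2 the DED81 call was lost (limma adjusted p = 0.0711). DED81 was one of the 3 genes with their highest mean at 120 min, where it had 986.7 and 1046.4.

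The rise was held at 60 min and smaller at 120 min. At 60 min 43 genes were called higher and none lower, where 22.1% of all genes were called higher and 43.8% lower. At 120 min the counts were 42 and none, where 19.0% and 37.4% were called. TEF4 led at 60 min, with 1598.7 and 1284.2, against 366.4, 493.8 and 380.7 at steady state (1.81, SE 0.137, limma adjusted p = 2.83e-09). MES1 led at 120 min, with 1295.1 and 1284.3, against 471.8, 431.0 and 453.3 (1.51, SE 0.0943, adjusted p = 2.86e-10). The highest group mean fell at 30 min for 31 of the genes, at 60 min for 12 and at 120 min for 3.

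Set directly against 30 min, the reference strain at 120 min had 20 of the genes lower and 2 higher, where 17.3% of all genes were called lower and 36.1% higher. Initiation genes made up 12 of the 20. All 4 start codon and subunit-joining genes were lower, as were 4 of 6 eIF3 genes, while 1 of 5 eIF2B genes was. NIP1 had 135.6 and 128.2 at 120 min, against 246.3 and 264.4 at 30 min, and fell by 0.95 (log2, SE 0.146, limma adjusted p = 3.16e-05). KRS1 had 25.9 and 20.5, against 70.7 and 65.0, and fell by 1.56 (adjusted p = 9.72e-06). ALA1 (alanine) fell by 0.75 (adjusted p = 0.000478).

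GUS1 and TIF4632 went the other way, with their highest signals at 120 min. GUS1 had 918.9 and 940.0 at 120 min, against 428.4 and 533.6 at 30 min, a rise of 0.96 (log2, SE 0.158, limma adjusted p = 6.72e-05). TIF4632 had 48.8 and 56.0, against 29.2 and 28.6, a rise of 0.86 (adjusted p = 0.00838) that was lost without 120 min replicate 2. This comparison moved with the scaling: 11 genes were lower and 1 higher with quantile normalization, and 39 and 1 with a common median. Without 120 min replicate 1, 12 were lower and 2 higher, and with all 26 arrays in the fit 6 and 2.

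**Figure D2:**
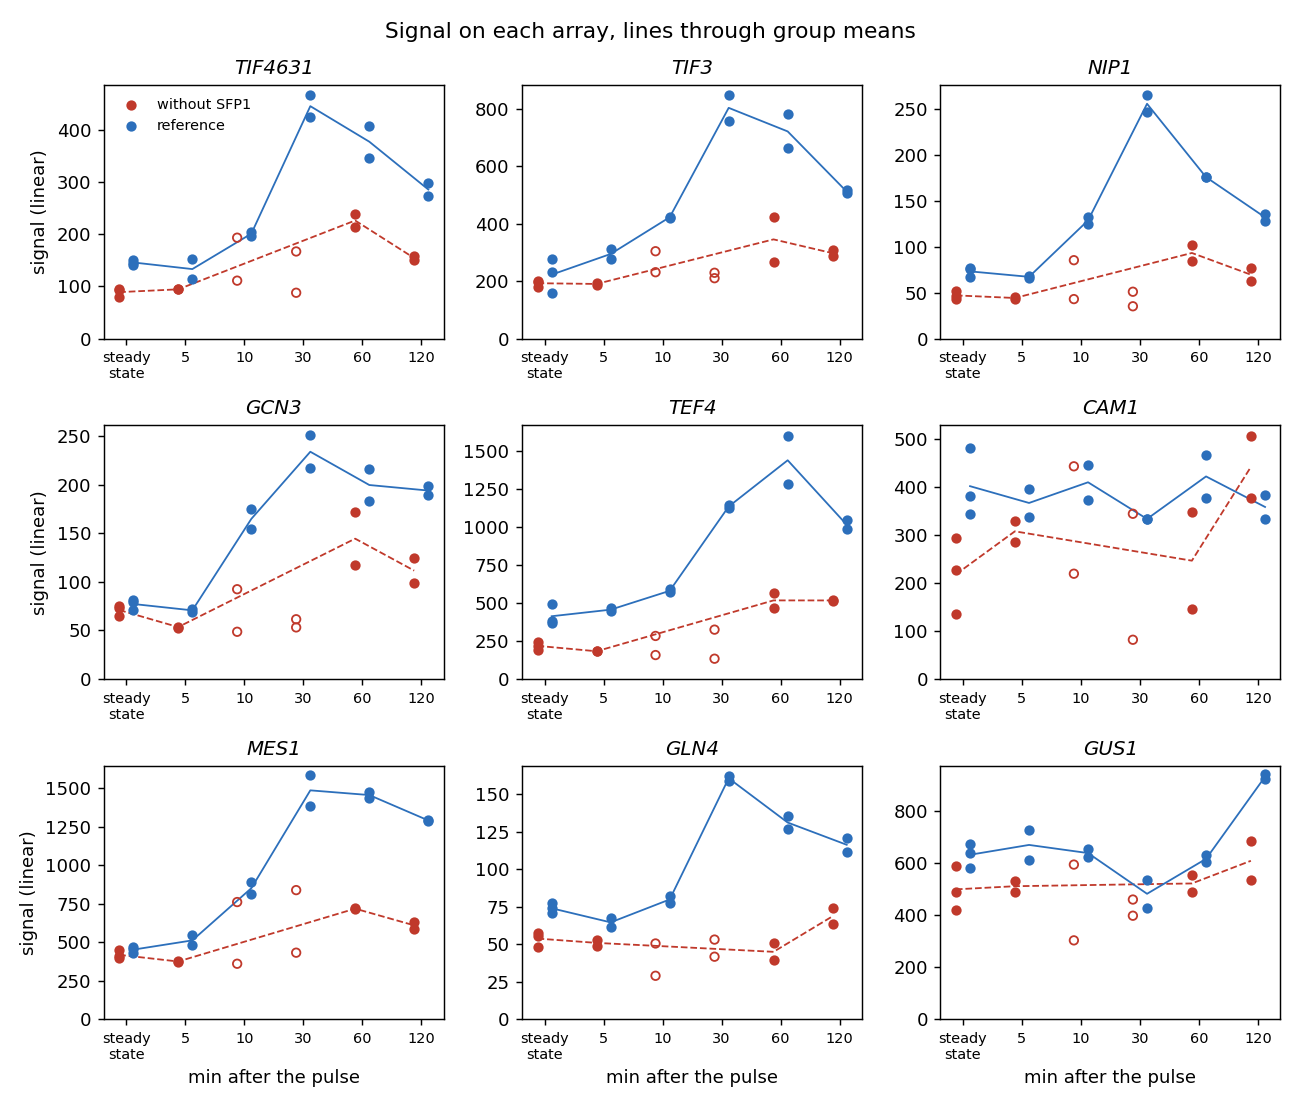
Signal (linear scale, from 0) of 9 genes on each array at steady state and 5 to 120 min, with the strain without SFP1 in red and the reference strain in blue, and lines through group means. Open circles are the deletion arrays labelled 10 and 30 min, through which no line is drawn; TIF3, NIP1, TEF4, MES1 and GLN4 lie higher on both reference arrays than on both deletion arrays at 60 and 120 min, while CAM1 overlaps between strains at 120 min.

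The genes for the mitochondrial counterparts, which serve the separate translation system of that organelle, went down in the same cultures. Of 20 mitochondrial factors and synthetases, 20 were called lower at 30 min, with a median of -1.80 (log2), and 20 at 60 and at 120 min. Of all genes tested, 53.0%, 43.8% and 37.4% were called lower at these times. TUF1, the mitochondrial elongation factor Tu, averaged 32.7 ± 8.20 at 30 min (SD, n = 2) and 239.2 ± 41.1 at steady state (SD, n = 3). MSF1, the mitochondrial phenylalanyl-tRNA synthetase, was under the floor on both 30 min arrays, so its fold is a lower bound. In yeast, ALA1, GRS1, HTS1 and VAS1 are single genes that supply both the cytosolic and the mitochondrial enzyme. This grouping was made after their values were seen. They changed by 1.38, 0.62, 1.73 and 0.89 at 30 min and all were called higher.

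Other cytosolic factors outside the 46 behaved less uniformly. Of 16 listed, 10 had a probe set of their own; TIF1 and TIF2, TEF1 and TEF2, and EFT1 and EFT2 share probe sets and were not measured separately. At 30 min 7 of the 10 were higher and 2 lower, where 22.6% of all genes were called higher and 53.0% lower. NEW1, an ATPase related to eEF3, changed by 2.21, RLI1, a ribosome recycling factor, by 1.45 and PAB1, the poly(A)-binding protein, by 1.04. HEF3, a second eEF3 gene, was lower, at or under 10.9 on both 30 min arrays and at 70.1 to 85.7 at steady state. The paired eIF5A genes moved in opposite directions: ANB1, known as the anaerobic form, had 2782.1 and 3064.5 at 30 min, against 6.3 to 16.6 at steady state, and HYP2, the aerobic form, had 1209 and 1299.8, against 3637.4 to 4280.8. These genes are near-identical, and cross-hybridisation was not tested. Of 9 regulators of initiation 4 were higher, among them CAF20, which binds eIF4E, and 4 lower, among them GCN2, so the number lower was close to the share over all genes.

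At steady state, with growth rate fixed, 15 of the translation genes were lower and 1 higher in the strain without SFP1 than in the reference strain, where 8.14% of all genes tested were called lower and 18.4% higher. Elongation (3 of 4) and eIF3 (4 of 6) held the largest shares of calls. No eIF2B gene of 5 and neither release factor was called, and 5 of 18 synthetases were lower. The median difference was -0.20 (log2) for the 46 genes and 0.13 for all genes tested. The estimate was negative for 35 of the 46, against 34.3% of all genes. These calls rest on leaving out the 4 discordant arrays: with all 26 arrays in the fit, only TEF4 was called (limma adjusted p = 0.0426).

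TEF4 had signals of 192.7, 218.0 and 244.5 in the deletion strain, against 366.4, 493.8 and 380.7 in the reference strain. It fell by 0.92 (log2, SE 0.123, limma adjusted p = 8.69e-05). Its paralogue CAM1 had 134.9, 226.5 and 293.6, against 381.7, 481.7 and 343.7, and fell by 0.94 (SE 0.278, adjusted p = 0.0208). Both genes had every deletion array below every reference array. The lowest CAM1 value came from the array with the actin ratio of 0.147, and the part of RNA integrity in it was not tested; without the low-ratio arrays the difference was -0.63 (adjusted p = 0.0256), and without steady state replicate 1 of the deletion strain or replicate 2 of the reference strain the call was lost. A second TEF4 probe set, with 3.9, 56.8 and 108.4 in the deletion strain and 209.4, 234.7 and 232.7 in the reference strain, was also lowest on that array. YEF3 had 2194.3, 2359.9 and 2289.6, against 2931.1, 3417.2 and 3220.0, with little spread in either strain.

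TIF4631 had 92.7, 94.4 and 80.2 in the deletion strain, against 144.9, 142.0 and 150.9 in the reference strain, and fell by 0.72 (log2, SE 0.117, limma adjusted p = 0.000489). TIF4632 had 28.8, 20.6 and 23.3, against 29.0, 21.0 and 36.0, and was not called. Of the eIF3 subunits, NIP1 had 46.7, 51.7 and 42.7, against 75.5, 66.6 and 77.3, and fell by 0.64 (adjusted p = 0.00141). RPG1 fell by 0.60 (adjusted p = 0.00366). TIF34 fell by 0.82 (adjusted p = 0.00151), with 232.6 on the low-ratio array and 322.7 and 336.5 on the others, against 456.1, 624.7 and 482.8; without the low-ratio arrays its difference was -0.65 (adjusted p = 0.00635). TIF35 stood apart within the complex, with an estimate of 0.26 that did not pass the test.

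Of the remaining genes called lower, SUI2 and TIF5 act in initiation, and WRS1, GLN4, DPS1, VAS1 and SES1 charge tRNA with tryptophan, glutamine, aspartate, valine and serine; PRT1, an eIF3 subunit, completes the list. WRS1 had 245.1, 257.1 and 255.1 in the deletion strain, against 321.2, 448.0 and 346.4 in the reference strain, and SES1 had 409.4, 392.5 and 364.7, against 526.5, 596.3 and 461.6. Neither gene's arrays overlapped between strains. SUI1 was called higher by 0.31 (log2, SE 0.111, limma adjusted p = 0.0487), with 518.8, 463.1 and 394.6 in the deletion strain, against 398.9, 360.4 and 345.8 in the reference strain, which overlap. That call was lost in 16 of the fits that left out 1 array. Over all 46 genes, 19 were lower on every deletion array than on every reference array, against 11.9% of all genes, and none was higher on every array, against 29.1%. Of the 16 calls, 9 held with any single array left out. Of the other cytosolic factors outside the 46, 6 of 10 were called lower, and of the mitochondrial list 3 of 20 were, where 8.14% of all genes were. Among the 6 was DED1, an RNA helicase of initiation, at -1.39. Its deletion arrays were far apart, at 49.1 to 178.4, against 250.2 to 299.9 in the reference strain, and the part of RNA integrity was not tested.

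**Figure D3:**
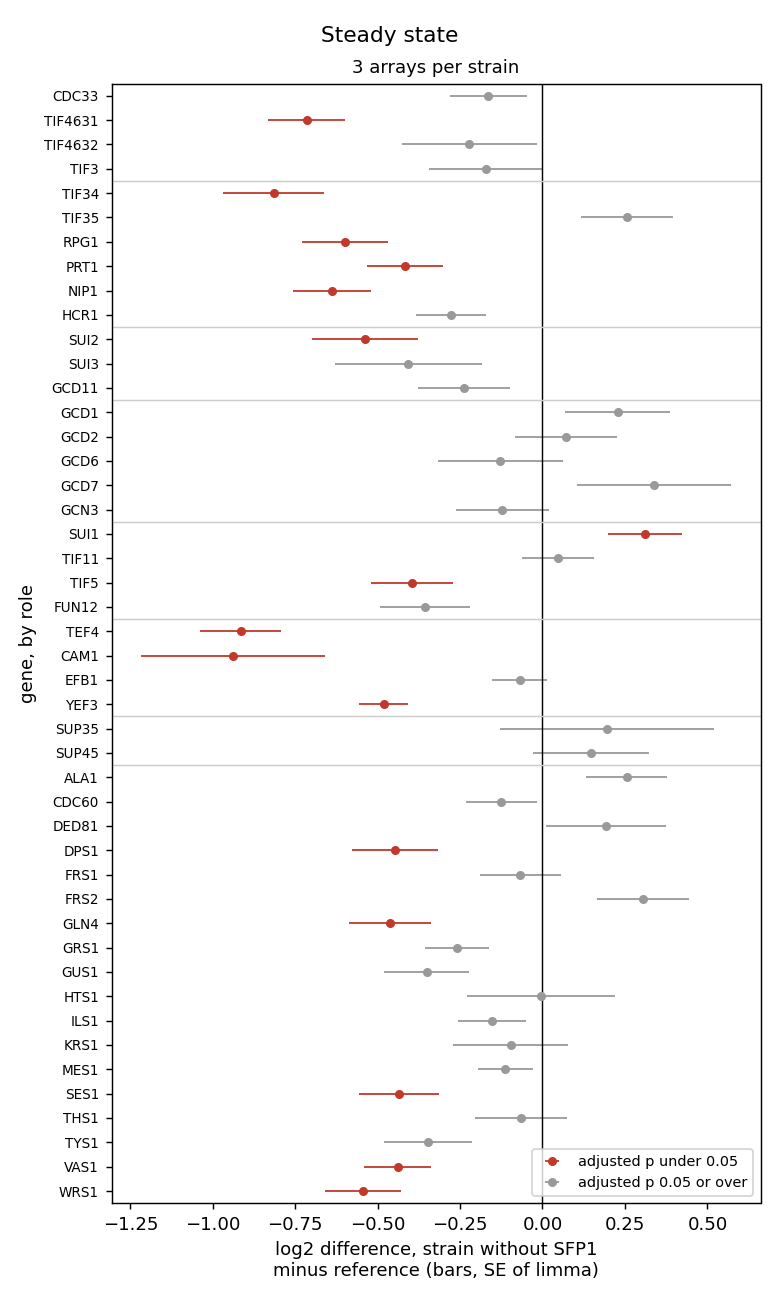
Steady state log2 difference, strain without SFP1 minus reference strain, for each of the 46 genes by role (3 arrays per strain; bars, standard error of limma; red, adjusted p under 0.05). Most points lie left of 0, with TEF4 at -0.92 and CAM1 at -0.94 farthest, and SUI1 is the only red point to the right.

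After the pulse the strain without SFP1 also had most of its translation genes called higher by 60 min. At 5 min none was called, where 6.78% of all genes were, and 4 had an unadjusted p under 0.05 with limma. At 60 min 31 were called higher and none lower, where 27.0% of all genes were called higher and 31.3% lower. At 120 min 29 were called higher and 1 lower, where 19.9% and 22.3% of all genes were. The median change was 0.60 (log2) at 60 min and 0.43 at 120 min, against 0.00 and 0.04 for all genes.

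TIF4631 led at 60 min, with 238.0 and 214.6, against 92.7, 94.4 and 80.2 at steady state, a rise of 1.35 (log2, SE 0.130, limma adjusted p = 1.11e-07). TEF4 had 569.8 and 466.2 at 60 min, against 192.7, 218.0 and 244.5, a rise of 1.25 (adjusted p = 5.67e-07). Its second probe set had 20.9 and 229.6 at 60 min, with the lower value on the array of actin ratio 0.247, and was not called there at 0.72 (limma adjusted p = 0.44). ILS1 had 600.2 and 531.9, against 275.9, 205.4 and 244.5, a rise of 1.23 (adjusted p = 6.21e-08). On the probe sets used, the groups of all 3 genes were clearly separated. By role, 16 of 22 initiation genes, 2 of 4 elongation genes, 1 of 2 release genes and 12 of 18 synthetases rose. The 60 min group includes the array with the actin ratio of 0.247; without it and steady state replicate 1 there were 25 higher and 2 lower, and RNA integrity was not otherwise tested.

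At 120 min TEF4 had 512.9 and 522.5, against 192.7, 218.0 and 244.5 at steady state, still 1.25 higher (log2, SE 0.137, limma adjusted p = 9.42e-07). CDC60, the leucyl-tRNA synthetase, rose by 1.03 (adjusted p = 2.07e-06). CAM1 had 508.1 and 377.0, against 134.9, 226.5 and 293.6, a rise of 1.07 (adjusted p = 0.0103) that was lost without steady state replicate 1, the low-ratio array, or 120 min replicate 1. EFB1 was called lower, with 1556.3 and 1652.6, against 1927.7, 2036.4 and 1995.0 (-0.31, adjusted p = 0.0133), but its second probe set gave 0.050. Without 120 min replicate 1 the calls at 120 min numbered 14, all higher, and with all 26 arrays in the fit 12. Leaving out the arrays labelled 10 and 30 min, 33 of the genes had their highest deletion mean at 60 min, 12 at 120 min and 1 at steady state.

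The mitochondrial list was lower after the pulse in the strain without SFP1 too, with 16 of 20 called at 60 min and 10 of 20 at 120 min, where 31.3% and 22.3% of all genes were called lower. ANB1 was 842.1 and 868 at 60 min in the deletion strain, against 3999 and 4674.6 in the reference strain.

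Compared array by array at the same time, the strain without SFP1 had lower signals for most translation genes at 5, 60 and 120 min. At 60 min both deletion arrays were below both reference arrays for 38 of 46 genes and above them for 1, FRS2, where 15.2% of all genes lay below and 53.8% above. At 120 min the counts were 37 and 0, where 15.2% and 62.6% of all genes did so, and at 5 min 34 and 1, where 21.1% and 41.3% did. At 5 min the 1 gene above was SUI1. With 2 arrays a strain no exact test of 1 gene could pass the threshold, and these are counts only. With quantile normalization the count below was 40 at 60 min and 41 at 120 min, where 26.6% and 28.6% of all genes lay below, and ALA1 lay above at both times. With a common median it was 45 and 46, where 33.6% and 42.1% of all genes did, so these shares moved with the scaling as well.

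The strain by time interaction, the change in the deletion strain minus the change in the reference strain, asks whether the response itself differed. At 60 min 13 of the 46 genes had a smaller change in the deletion strain and none a larger one, where 5.27% of all genes tested were called with a negative value and 18.1% with a positive one. At 120 min the counts were 5 and 0, where 4.34% and 15.2% of all genes were called. At 5 min none was called, where 0.522% of all genes were, and 2 had an unadjusted p under 0.05 with limma. The interaction was negative for 40 of 46 genes at both 60 and 120 min, against 32.0% and 30.6% of all genes, and the 2 times share their steady state arrays.

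GLN4, the glutaminyl-tRNA synthetase, differed most at 60 min. It had 50.6 and 39.3 at 60 min in the deletion strain, whose steady state signals were 57.6, 55.7 and 48. In the reference strain it had 135.3 and 126.7, against 73.9, 77.2 and 70.7 at steady state. Only the reference strain's arrays at 60 min stood above its steady state, and the interaction was -1.09 (log2, SE 0.196, limma adjusted p = 0.000877).

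MES1 differed at both times. It had 719.6 and 716.0 at 60 min and 586.0 and 633.0 at 120 min in the deletion strain, whose steady state signals were 446.8, 410.6 and 397.5. In the reference strain it had 1473.7 and 1434.9 at 60 min and 1295.1 and 1284.3 at 120 min, against 471.8, 431.0 and 453.3. Both strains rose, the deletion strain by less, with an interaction of -0.91 at 60 min (log2, SE 0.133, limma adjusted p = 0.000146) and -0.97 at 120 min (adjusted p = 9.07e-05).

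RPG1, the largest eIF3 subunit, had 448.2 and 313.5 at 60 min in the deletion strain, whose steady state signals were 296.3, 250.0 and 266.7. In the reference strain it had 964.8 and 1034.5, against 439.4, 336.6 and 463.2. The interaction was -0.82 at 60 min (log2, SE 0.205, limma adjusted p = 0.00942) and -0.76 at 120 min (adjusted p = 0.0152). TIF3, DED81 (asparagine) and SUP45 had interactions of -0.92, -0.82 and -0.80 at 60 min. EFB1 had 1870.4 and 1813.2 at 60 min in the deletion strain, whose steady state signals were 1927.7, 2036.4 and 1995.0, and 3040.6 and 2874.7 in the reference strain, against 2209.7, 2156.1 and 1897.9. Its interaction was -0.61 (adjusted p = 0.00327). The second EFB1 probe set, with 1332.2 and 1911.9 at 60 min in the deletion strain and 2126.1 and 2736.4 in the reference strain, gave an interaction of -0.32 that did not pass the test (limma adjusted p = 0.58), and at 120 min one of -0.68 (adjusted p = 0.225). The calls at 120 min beyond MES1 and RPG1 were GCN3 at -0.69, EFB1 at -0.66 and TIF11 at -0.59.

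Other members had estimates near 0. That of TIF4631 was -0.02 at 60 min (SE 0.185), and its change was 1.35 in the deletion strain and 1.37 in the reference strain. ALA1, VAS1, CDC60 and CAM1 had estimates between -0.07 and 0.04 at 60 min. At 120 min CAM1 had 1.23 (SE 0.440, limma adjusted p = 0.060), and the next highest estimate was 0.17 for TIF34.

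These interaction calls are less firm than the time courses. With all 26 arrays in the fit, 1 gene was called at 60 min and none at 120 min (6 had an unadjusted p under 0.05 with limma there, and 17 with 22 arrays). A common median gave 32 and 33, all negative. Of the 13 calls at 60 min, 4 held with any single array left out, and of the 5 at 120 min, 2 did. Of the mitochondrial list, 5 of 20 were called positive at 60 min and 6 of 20 at 120 min, none negative, where 18.1% and 15.2% of all genes were called positive.

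**Figure D4:**
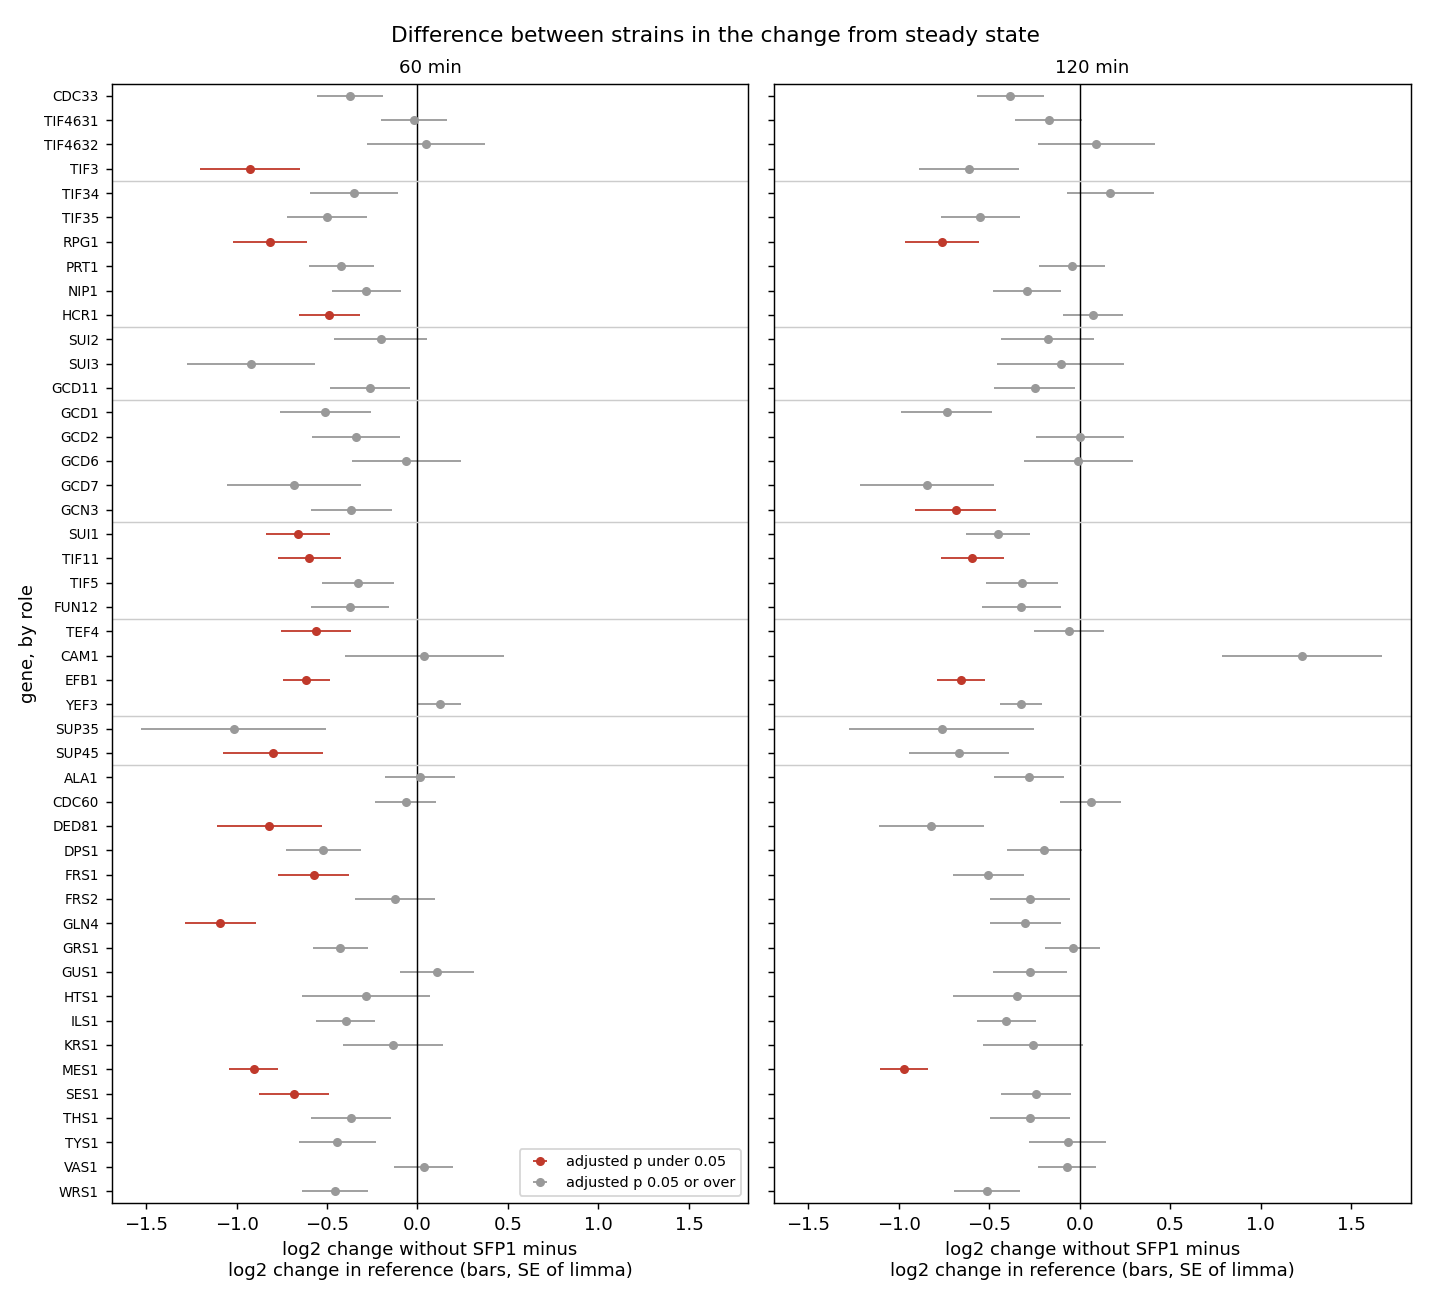
Strain by time interaction of the 46 genes by role at 60 and 120 min: log2 change from steady state without SFP1 minus that in the reference strain (bars, standard error of limma; red, adjusted p under 0.05). In both panels 40 of 46 points lie left of 0; GLN4 at -1.09 is farthest left at 60 min and MES1 at -0.97 at 120 min, while CAM1 at 120 min lies far to the right with a wide bar.

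The 4 deletion arrays labelled 10 and 30 min can be averaged over both times, and that mean does not depend on which of them is which. The standard errors, adjusted p and counts do depend on it, because the fit takes the spread from within each label. Against steady state, 4 genes were then called higher and 1 lower, where 9.24% of all genes were called higher and 31.8% lower. Within each label the arrays were far apart. YEF3 had 3210.0 and 6691.6 on the arrays labelled 10 min and 7740.0 and 2265.4 on those labelled 30 min, against 2194.3, 2359.9 and 2289.6 at steady state, a rise of 0.95 (log2, SE 0.282, limma adjusted p = 0.013). ALA1 had 771.7 and 2026.0, then 2562.1 and 1078.0, against 765.8, 728.2 and 635.3, a rise of 1.03 (adjusted p = 0.00694). For both genes the 10 min replicate 2 and 30 min replicate 1 arrays were high, and these had actin middle to 3' ratios of 0.207 and 0.176, the lowest of all arrays; the part of RNA integrity was not tested.

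GCD7 went down on all 4 arrays, with 56.8 and 101.8 at 10 min and 98.7 and 64.7 at 30 min, against 176.8, 187.9 and 136.7 at steady state (-1.09, SE 0.262, limma adjusted p = 0.00351). In the reference strain GCD7 had 221.6 and 200.3 at 10 min and 179.8 and 389.4 at 30 min, against 150.4, 126.3 and 118.5, and the interaction over the mean of both times was -1.94 (SE 0.370, adjusted p = 0.00424). GCN3, its partner in the regulatory part of eIF2B, had 48.6 and 92.4, then 61.5 and 53.1, in the deletion strain, against 65.0, 73.2 and 74.7 at steady state, and an interaction of -1.54 (adjusted p = 0.00242). In all 12 of the genes had a negative interaction called and none a positive one, where 5.07% and 6.05% of all genes were called; 9 of the 12 were initiation genes, among them NIP1 at -1.20 and TIF5 at -1.25. Without the second array of each of these labels the counts were 25 negative and 1 positive, with a common median 25 and 0, and with quantile normalization 7 and 0.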

How the data were processed

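RNA from 26 yeast chemostat samples was hybridised to Affymetrix arrays. The authors deposited 1 linear intensity for each probe set of each array. GCOS made it, per the submitters' processing notes, with version, algorithm and scaling not given in the sources used here. Each array's 2% trimmed mean was 150.1 to 150.2, so the intensity values were used as deposited. Of 9335 probe sets, 6504 name 1 gene, 328 several and 2443 none, and 60 are controls; the brightest probe set was kept for the 315 genes with over 1 (among the 46, TEF4 and EFB1). All 46 genes matched a RefSeq locus tag. Signals under 12 were set to 12 before log2, and 287 genes above 12 on fewer than 2 arrays were left out.

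Group means were fitted with limma 3.58.1 in R 4.3.3 (eBayes with intensity trend, two-sided, Benjamini-Hochberg over 5369 genes, called under 0.05). The fit reported used 22 arrays (12 residual degrees of freedom), without the 4 discordant deletion arrays. A fit of all 26 arrays (14 residual degrees of freedom) gave the mean of 10 and 30 min. Replicates are independent cultures, per the labels; whether the times share cultures is not given. The number of arrays limits the precision. The fit reported did not pair samples by replicate number. Of 45 pairs of groups, 13 had a correlation of deviations over 0.1, with a range of -0.251 to 0.334. Between the pulse times of the reference strain all were positive, at 0.0697 to 0.272. Its steady state with those times gave -0.251 to 0.127, and pairs within the deletion strain gave -0.0906 to 0.334. Whether the numbers pair the samples is therefore not settled.

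The genes, lists, tests and the choice to leave out the 4 arrays were made with earlier results of these data known. Fold changes and p are given mainly for the 6 largest rises and 6 largest falls per comparison. Values are also given for members of the same complex or pair, for every interaction called and for some other named genes. Alternatives were a floor of 48, scaling to a common median, quantile normalization, testing without the dim-gene filter or the trend, a threshold of 0.01, the replicate block, all arrays, fewer discordant or low-actin arrays, the array code prefix, second probe sets and each array left out. The fit was tested on simulated data. Figures used matplotlib 3.10.9.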

Additional observations from a re-analysis of the deposited data

Results flagged for a closer look

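The strain by time interactions below passed the test of the difference itself (limma, adjusted p under 0.05) in the fit reported for each. That test asks whether the change after the pulse differed between the strain without SFP1 and the reference strain. Many of these calls were lost in other fits, so the difference is not settled for each gene. All of the interactions listed are negative, meaning a smaller rise, or a fall, in the deletion strain. Values are on the log2 scale.

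At 60 min they were GLN4 at -1.09, TIF3 at -0.92, MES1 at -0.91, DED81 at -0.82, RPG1 at -0.82, SUP45 at -0.80 and SES1 at -0.68. The remaining ones at 60 min were SUI1 at -0.66, EFB1 at -0.61, TIF11 at -0.60, FRS1 at -0.57, TEF4 at -0.56 and HCR1 at -0.49. Of the 13 calls at 60 min, 4 held with any single array left out. Those of TEF4 and SUP45 were each lost in 18 such fits, DED81 in 17, HCR1 in 15 and FRS1 in 11. The second TEF4 probe set gave -1.17 at 60 min and was not called (limma adjusted p = 0.459). At 120 min they were MES1 at -0.97, RPG1 at -0.76, GCN3 at -0.69, EFB1 at -0.66 and TIF11 at -0.59. Of these 5, 2 held with any single array left out. With all arrays in the fit, including the discordant deletion arrays, most calls at 60 min and all of those at 120 min were lost.

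Over the mean of 10 and 30 min, which includes the deletion arrays whose labels and correlations differ, they were GCD7 at -1.94, GCN3 at -1.54, TIF5 at -1.25, NIP1 at -1.20, RPG1 at -1.16 and SUI1 at -1.14. The remaining ones were SUP45 at -1.12, TIF3 at -1.10, DED81 at -0.998, GLN4 at -0.95, PRT1 at -0.92 and FUN12 at -0.84. Of these 12 calls, 7 held with any single array left out, while TIF5 was lost in 21 such fits and DED81 in 17. The causes of these interactions were not tested.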

How the results depend on the processing

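The reference time courses at 30, 60 and 120 min and the deletion time course at 60 min stayed within 1.5 times their counts under the alternatives run, except that at 120 min the deletion count of 30 became 17 at an adjusted p under 0.01 and 12 with all 26 arrays. The other counts moved, and no cause was tested. At an adjusted p under 0.01 there were 8 calls at steady state (16 as reported), 16 in the reference strain at 10 min (29), 13 for 120 against 30 min (22), 4 and 2 interactions at 60 and 120 min (13 and 5), and 3 and 3 for the deletion change and interaction over 10 and 30 min (5 and 12). With all 26 arrays there were 1 at steady state, 12 at 10 min, 8 for 120 against 30 min, 1 at 60 min and 0 at 120 min for the interactions. Quantile normalization gave 12 for 120 against 30 min, 1 in the deletion strain at 5 min, 8 at 60 min for the interaction (7 negative, 1 positive), and 11 and 7 over 10 and 30 min. A common median gave 6 in the reference strain at 5 min, 40 for 120 against 30 min, 32 and 33 interactions at 60 and 120 min, and 19 and 25 over 10 and 30 min. Without the intensity trend 8 interactions were called at 60 min. The array code prefix was MA on replicate 2 at 10 min, replicate 2 at 30 min and replicate 1 at 60 min of the deletion strain. It was ES on every other array. As a term in the fit, this prefix gave 1 in the deletion strain at 5 min and 9 interactions at 120 min. Without the low-actin arrays there were 1 in the reference strain at 5 min, 9 interactions at 120 min and 3 over 10 and 30 min for the deletion change. Without the 2 discordant arrays the deletion change over 10 and 30 min gave 16 (11 higher, 5 lower) and the interaction 26.

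Leaving out 1 array gave ranges of 12 to 18 at steady state; 0 to 1, 14 to 30, 41 to 44, 42 to 43 and 36 to 42 in the reference strain at 5, 10, 30, 60 and 120 min, and 14 to 24 for 120 against 30 min. The deletion strain gave 0 to 1, 26 to 33 and 14 to 34 at 5, 60 and 120 min, and 4 to 16 over 10 and 30 min. The interactions gave 0 to 0, 5 to 15 and 2 to 9 at 5, 60 and 120 min, and 8 to 31 over 10 and 30 min. Counts moved by over 1.5 times without reference 10 min replicate 2 (14), reference 120 min replicate 1 (14 for 120 against 30 min, and 2 for the 120 min interaction), reference 120 min replicate 2 (3 for that interaction) and deletion 120 min replicate 1 (14). The 60 min interaction had 5, 8 and 7 without reference 60 min replicate 1, its replicate 2 and deletion 60 min replicate 2. The 120 min interaction had 8, 9 and 9 without deletion steady state replicate 3 and deletion 60 min replicates 1 and 2. Over 10 and 30 min the deletion change had 14, 9 and 16 without deletion 10 min replicate 1, 30 min replicate 1 and 30 min replicate 2, and the interaction 25 and 31 without 10 min replicate 2 and 30 min replicate 1. At 5 min 1 was called without reference steady state replicate 2, or in the deletion strain without either 60 min array.

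Values that turned sign were EFB1 in the reference strain with quantile normalization (-0.25, -0.16 and -0.21 at 30, 60 and 120 min), YEF3 at 120 min with it (-0.056), GUS1 at 30 min with a common median (0.55) and EFB1 in the deletion strain at 120 min with its second probe set (0.050). The median change of all genes at 30 min in the reference strain was -0.53 as deposited, 0.00 with quantile normalization and 0.25 with a common median, and the median of the 46 genes was 1.15, 1.21 and 2.10. Whether replicate numbers pair the samples is not settled. With the replicate block, 18 genes were called at steady state, 22 at 10 min in the reference strain and 10 at 60 min for the interaction. No count moved by over 1.5 times with it. KRS1, near the floor, is the gene least well measured.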
